A study of Mus musculus with 9 samples.

Results

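The 50 genes described here encode the machinery of DNA replication and S phase: replication licensing and helicase proteins, DNA polymerases, enzymes of nucleotide synthesis, and chromatin and repair proteins that work in S phase. They were listed by name and role, with earlier results of these data known, and all 50 were found among the 55416 genes of the count table. RNA sequencing was performed on MC3T3-E1, a wild-type mouse pre-osteoblast line from calvarial bone, and 3 conditions were compared with 3 libraries each. Cells of all 3 conditions were differentiated in osteogenic medium with 10% fetal bovine serum, 10 mM β-glycerophosphate, ascorbic acid and dexamethasone, for 27 days per the labels, while the methods of the study have β-glycerophosphate removed earlier in differentiation. At day 27 the cells received 4 mM β-glycerophosphate (BGP), 4 mM of a mixture of monosodium and disodium phosphate (NaHPO4) or neither (Control) for 16 h, and RNA was taken at day 28. BGP is an organic phosphate ester of glycerol, from which alkaline phosphatase releases phosphate, whereas NaHPO4 supplies inorganic phosphate directly. The cells are a single clonal line in culture, and the labels do not say whether the replicates were separate cultures, so the p-values measure only the spread between these libraries, which may be technical.

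Before a cell copies its DNA, the origin recognition complex, Cdc6 and Cdt1 load the ring-shaped Mcm helicase onto origins, a step called licensing. Cdc45 and the GINS complex then join the helicase and activate it, primase and the polymerases copy the strands, the PCNA clamp holds the polymerases on DNA, and DNA ligase 1 joins the Okazaki fragments of the lagging strand. Many of these genes are transcribed at the G1/S transition under E2F transcription factors. Osteoblast precursors proliferate early in culture and largely leave the cell cycle as they deposit matrix. In bulk RNA, a change in the share of cells in S phase and a change in replication RNA per cell cannot be told apart.

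Promoter sequences are shown because the genes are known as E2F targets. RefSeq promoter windows of mouse build GRCm38.p6, running from 250 bases upstream of a start to 50 bases from it, were found for 42 of the 50 genes, and the genes with no entry were Mcm4, Gins1, Gins2, Gins4, Rfc2, Prim2, Pole and Exo1. Searched on both strands, the E2F words TTTCCCGC, TTTCGCGC, TTTGCCGC and TTTGGCGC occurred in the windows of 15 of 42 replication genes (35.7%), of 478 of 10036 genes tested for expression (4.76%) and of 704 of 27025 genes in the promoter table (2.6%). The CCAAT box, CCAAT on either strand, occurred in 27 of 42 replication genes (64.3%) and in 43.4% of the genes tested. The stretches around the E2F words are given 5′ to 3′ for the 6 genes with library values below, an E2F word and the smallest adjusted p with NaHPO4, and capitals mark the E2F words.
Mcm6 (chr1:128359721-128359840, minus strand): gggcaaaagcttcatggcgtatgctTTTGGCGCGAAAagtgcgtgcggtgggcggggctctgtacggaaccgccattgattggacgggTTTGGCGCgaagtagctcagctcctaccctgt
Mcm5 (chr8:75109302-75109421, plus strand): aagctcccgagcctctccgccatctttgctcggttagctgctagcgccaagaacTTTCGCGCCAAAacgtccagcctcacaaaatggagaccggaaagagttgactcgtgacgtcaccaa
Uhrf1 (chr17:56304072-56304191, plus strand): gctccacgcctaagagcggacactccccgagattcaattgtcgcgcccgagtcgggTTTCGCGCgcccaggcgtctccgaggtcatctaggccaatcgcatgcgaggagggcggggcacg
Lig1 (chr7:13278841-13278870, plus strand): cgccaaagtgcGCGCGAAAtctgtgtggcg
Mcm3 (chr1:20820266-20820295, minus strand): tgGCGGGAAAacttgggaagtTTTGGCGCc
Cdt1 (chr8:122568035-122568064, plus strand): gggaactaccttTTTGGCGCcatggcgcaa

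In Mcm6 and Mcm5, 2 words on opposite strands overlapped and form a single capital run, beginning 110 and 153 bases upstream of the start, and Mcm6 held another word 47 bases upstream. The word of Uhrf1 began 185 bases upstream. Those of Lig1, Mcm3 and Cdt1 lay downstream of the start, beginning 26 bases from it in Lig1, 19 and 38 bases in Mcm3 and 32 bases in Cdt1. Distances are from the start of the window shown. Uhrf1 and Lig1 also had windows at other starts, which held no E2F word. A gene was counted when any of its windows held a word. A word in a window describes its letters and does not show that a factor bound there.

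The libraries held 21390839 to 28234404 counts, with the 3 NaHPO4 libraries among the 4 deepest. Replicate pairs differed by 2.61 to 4.85 times sampling variance. The highest values, 4.22 and 4.85, were those of NaHPO4 replicate 1 with its other replicates. All 15 osteoblast and osteocyte markers passed the count filter. Their summed level was 111857 to 119172 CPM (library-size-scaled counts, with libraries further adjusted by the trimmed mean of M values, TMM) in Control, 112859 to 118294 CPM with BGP and 104915 to 111064 CPM with NaHPO4. The 5 adipocyte markers summed to 9.86 to 15.7 CPM over all libraries and the 5 endothelial markers to at most 0.187 CPM. The 5 macrophage and blood markers summed to 1.74 to 2.01 CPM in Control, 2.02 to 2.48 CPM with BGP and 1.52 to 1.72 CPM with NaHPO4, and the 5 muscle markers to 9.29 to 10.1, 7.8 to 8.89 and 7.69 to 7.86 CPM. The 5 chondrocyte markers were higher and moved with the conditions, at 205 to 264 CPM in Control, 299 to 404 CPM with BGP and 142 to 225 CPM with NaHPO4. Nearly all of this was Col2a1, the type II collagen chain, which fell with NaHPO4 (log2 fold change -0.45, adjusted p = 0.00141) and rose with BGP (0.50, adjusted p = 0.000754). Acan, the cartilage proteoglycan, was at most 0.0451 CPM. Col2a1 and Acan were named after their values were seen. The other chondrocyte marker that passed the count filter had log2 fold changes of 0.81 with NaHPO4 and 1.27 with BGP and was called in neither. Cidec, Matn1, Itgam, Emcn, Kdr, Myod1 and Myog were at 0 in all 9 libraries.

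All 50 replication genes passed the count filter that left 13679 genes for testing. Their levels are compared here per kilobase of annotated exon (RPKM). The length joins the exons of all annotated transcripts of a gene, so the order of the genes also depends on the annotation. In Control, Pcna, the sliding clamp, was highest at 47.0 RPKM, followed by Rpa3 and Rpa1, subunits of the single-strand binding protein, at 20.9 and 13.8 RPKM, and by Mcm6 and Rrm2 at 13.6 and 13.1 RPKM. The lowest were Orc1, the largest subunit of the origin recognition complex, at 0.343 RPKM, Exo1 at 0.653 RPKM and Ung, a uracil-DNA glycosylase, at 0.687 RPKM. The 6 Mcm2 to Mcm7 genes, whose proteins form one ring, ranged in Control from 5.87 RPKM for Mcm5 to 13.6 RPKM for Mcm6.

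The first comparison asked how the replication genes differed after 16 h with inorganic phosphate. NaHPO4 raised 23 of the 50 genes and lowered 0 at an adjusted p below 0.05 in edgeR's quasi-likelihood test with Benjamini-Hochberg adjustment over all tested genes, where 3.43% of all tested genes were higher and 3.95% lower. The log2 fold change was above 0 for 50 of 50 genes, and for 6843 of all 13679 tested genes. Its median over the 50 genes was 0.22 (1.17-fold) against 0.00 for all genes tested. It ranged from 0.04 for Pold2 and Blm to 0.56 for Exo1. The size of the changes was small: Exo1 alone also passed the study's minimum absolute log2 fold change of 0.5, a rule that 0.716% of all tested genes met. The number passing that rule was 3 without Control replicate 2 and 0 without Control replicate 3. The 3 NaHPO4 libraries all lay above the 3 Control libraries for 35 of 50 genes, as they did for 11.6% of all tested genes.

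**Figure D1:**
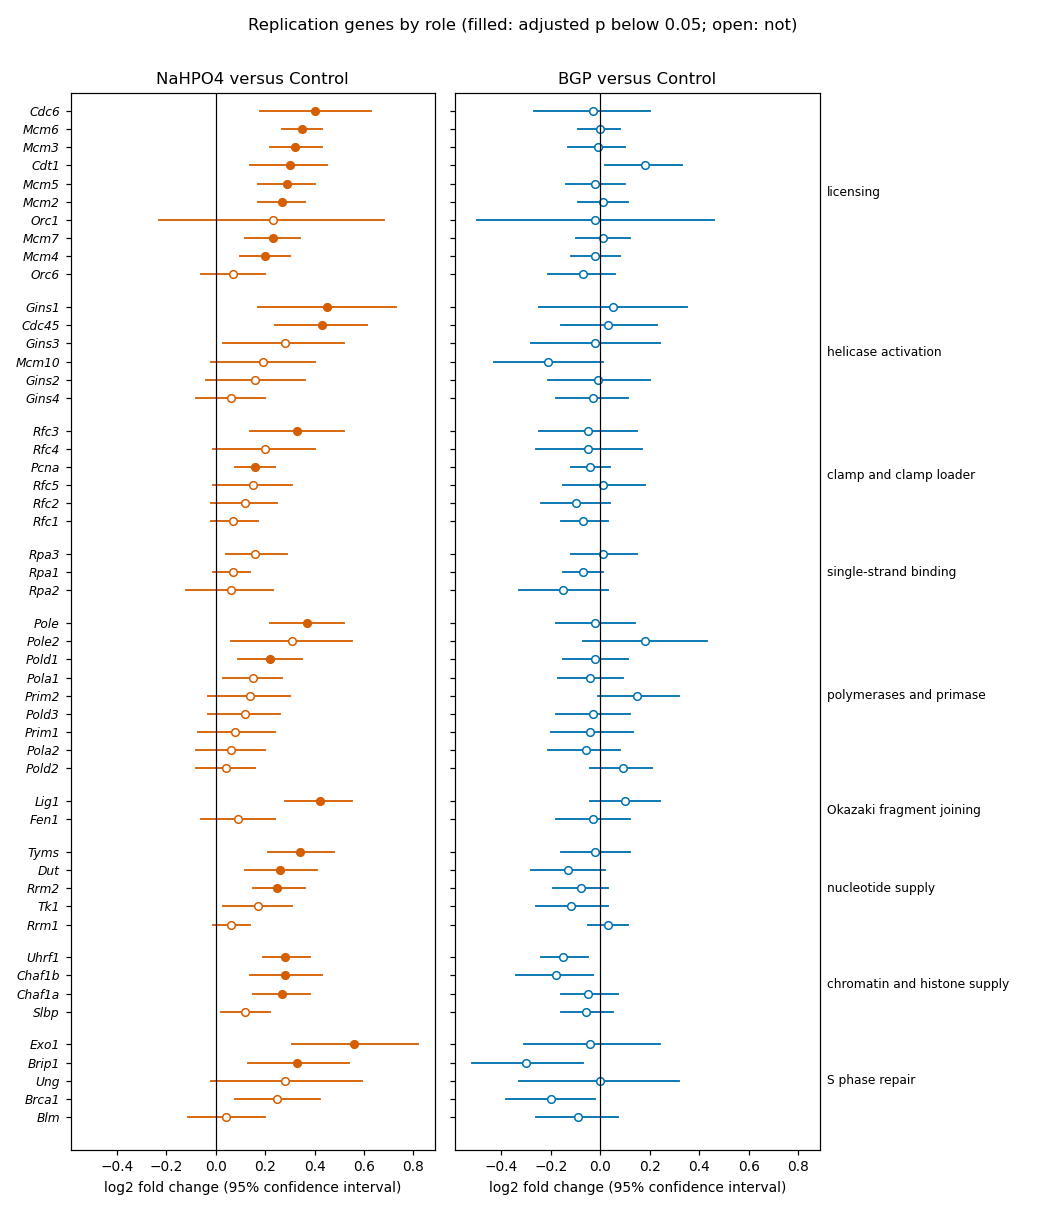
Log2 fold change of each of the 50 replication genes, grouped by role, with NaHPO4 (left) and BGP (right) against Control. Points are estimates from 3 libraries per condition, lines are 95% confidence intervals, and filled points have an adjusted p below 0.05, which 23 genes reached with NaHPO4 and 0 with BGP.

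Summed over the 50 genes, the level was 1511, 1518 and 1537 CPM in the Control libraries, 1473, 1501 and 1492 CPM in the BGP libraries and 1700, 1762 and 1757 CPM in the NaHPO4 libraries. The 3 NaHPO4 libraries were thus the highest of the 9, with a mean of 1739 CPM ± 34.5 (SD, n = 3) that was 14.3% above the Control mean of 1522 CPM ± 13.7 (SD, n = 3). The BGP mean was 1489 CPM ± 14.4 (SD, n = 3). The genes together took 0.151% to 0.152% of all counts in Control, 0.146% to 0.15% with BGP and 0.171% to 0.179% with NaHPO4. The NaHPO4 libraries were also the deepest on average and had the lowest summed osteoblast markers. Of these 15 markers 6 fell and 2 rose with NaHPO4, where 3.95% of all tested genes were lower and 3.43% higher. The log2 fold changes of the markers ran both ways, from -1.68 to 2.19, with a median of -0.09. When every library was thinned to the smallest total, a step chosen after the data were seen, 21 of the 50 genes were higher. Col2a1 fell in the same comparison, as given above. The part of the marker levels in the result was not tested.

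Licensing genes held the most calls, with 8 of 10 higher and a median log2 fold change of 0.28. Mcm6, a subunit of the helicase ring, had the smallest adjusted p of all 50 genes. It was measured at 73.3, 73.2 and 75 CPM in Control, 73.6, 75.1 and 72.4 CPM with BGP and 93.8, 93.8 and 94.6 CPM with NaHPO4. The NaHPO4 libraries lay close together and well above the other 6, which overlapped. Mcm6 rose by a log2 fold change of 0.35 (1.27-fold, SE 0.0393, adjusted p = 4.61e-08). Mcm3, another ring subunit, was at 44.4, 42.9 and 47.8 CPM in Control, 44.5, 44.5 and 44.9 CPM with BGP and 52.2, 59.5 and 57.7 CPM with NaHPO4. It rose 1.25-fold (log2 fold change 0.32, SE 0.0524, adjusted p = 3.85e-05), with no overlap between NaHPO4 and the other conditions.

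Mcm2 and Mcm5 had a wider spread with NaHPO4. Mcm2 was at 58.6, 60.8 and 58.7 CPM in Control, 58.1, 62 and 59.1 CPM with BGP and 65.3, 74.5 and 74.3 CPM with NaHPO4. Mcm5 was at 40.1, 40.5 and 39.7 CPM in Control, 40.5, 40.3 and 37.9 CPM with BGP and 43.8, 50.9 and 52.3 CPM with NaHPO4. For both genes NaHPO4 replicate 1 was the lowest of its condition and still above every Control and BGP library. Mcm2 rose 1.2-fold (log2 fold change 0.27, SE 0.0484, adjusted p = 0.000239) and Mcm5 rose 1.22-fold (log2 fold change 0.29, SE 0.0567, adjusted p = 0.000661). The remaining ring subunits Mcm7 and Mcm4 rose by log2 fold changes of 0.23 and 0.20 (adjusted p = 0.00324 and 0.00811), so that all 6 genes of the ring were higher. The call for Mcm7 was lost without NaHPO4 replicate 2 and that for Mcm4 without NaHPO4 replicate 2 or Control replicate 1, with adjusted p over all alternatives from 0.000613 to 0.0527 and from 0.0012 to 0.12. The loading factors Cdc6 and Cdt1 rose by 0.40 and 0.30 (adjusted p = 0.0172 and 0.00891). The call for Cdc6 was lost without Control replicate 3, NaHPO4 replicate 2 or NaHPO4 replicate 3 (0.00735 to 0.169 over the alternatives) and that for Cdt1 without Control replicate 1 (0.00418 to 0.0678). The origin recognition genes did not pass: Orc6 had a log2 fold change of 0.07 (adjusted p = 0.6) and Orc1 0.23 (adjusted p = 0.647), the latter with a 95% confidence interval from -0.23 to 0.68 at about 2.3 CPM with NaHPO4.

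**Figure D2:**
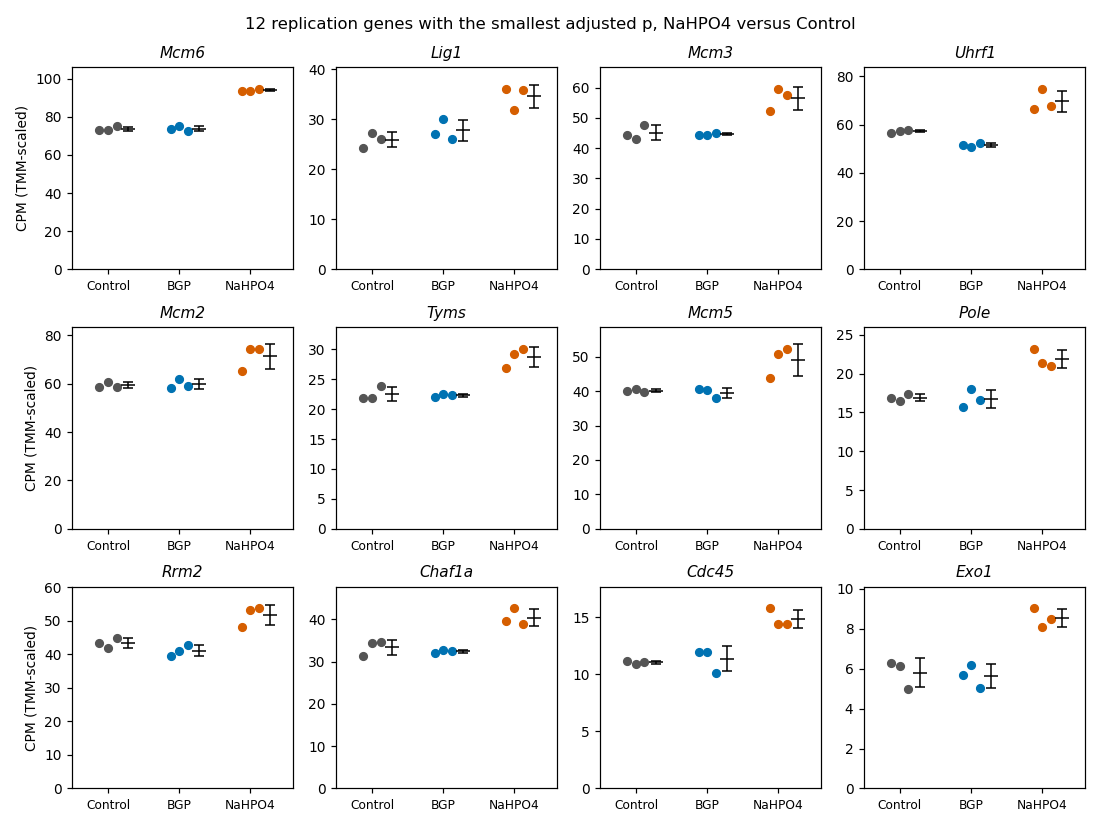
TMM-scaled CPM in each library for the 12 replication genes with the smallest adjusted p in NaHPO4 versus Control, with axes from 0. Coloured points are libraries (3 per condition) and black marks are the mean ± SD; in each of the 12 genes the NaHPO4 points lie above all Control and BGP points.

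Of the 6 helicase activation genes, 2 were higher with NaHPO4 and the median log2 fold change was 0.23. Cdc45, the helicase cofactor, was at 11.2, 10.9 and 11.1 CPM in Control, 12, 12 and 10.1 CPM with BGP and 15.8, 14.4 and 14.4 CPM with NaHPO4. It rose 1.34-fold (log2 fold change 0.43, SE 0.0906, adjusted p = 0.00155), with all NaHPO4 libraries above all others. Of its exon length, 10.6% overlapped Ufd1 on the opposite strand, for which the log2 fold change was 0.02, and whether the counting used strand is not given in the sources used here. Gins1, a subunit of the GINS complex, rose by 0.45 (adjusted p = 0.0398), a call lost with DESeq2, after thinning and without Control replicate 1 or 3 or NaHPO4 replicate 1 or 2 (0.0263 to 0.187 over the alternatives). Gins3, Mcm10, Gins2 and Gins4 had log2 fold changes of 0.28, 0.19, 0.16 and 0.06 and did not pass, and 67.3% of the exon length of Gins2 overlapped Gse1 on the opposite strand.

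Among the clamp and clamp loader genes 2 of 6 were higher, with a median log2 fold change of 0.16. Pcna rose by 0.16 (adjusted p = 0.00511), from a mean of 113 CPM ± 0.745 in Control to 126 CPM ± 1.32 (SD, n = 3 each), and Rfc3, a small subunit of the clamp loader, rose by 0.33 (adjusted p = 0.0212), a call lost after thinning and without any Control library or NaHPO4 replicate 1 or 3 (0.0116 to 0.0778). Rfc4, Rfc5, Rfc2 and Rfc1 had log2 fold changes of 0.20, 0.15, 0.12 and 0.07 and did not pass. Rfc5 shared 41.4% of its exon length with Wsb2 and Rfc2 24.3% with Lat2, both on the opposite strand. Lat2, at a mean of 1.11 CPM over all libraries, rose with NaHPO4 (log2 fold change 1.11, adjusted p = 0.0383 in edgeR), and Wsb2 had -0.01. Also on the opposite strand, Pcna shared 20.8% with AV099323 (mean 0.435 CPM) and Rfc4 16.5% with Eif4a2 (mean 253 CPM). Their log2 fold changes with NaHPO4 were -0.74 and -0.09, and neither was called. None of the 3 genes for replication protein A, which coats single-stranded DNA, passed (Rpa3 0.16, Rpa1 0.07 and Rpa2 0.06).

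The polymerase and primase genes had 2 of 9 members higher with NaHPO4 and a median log2 fold change of 0.14. Pole, the catalytic subunit of the leading-strand polymerase epsilon, was at 16.8, 16.5 and 17.4 CPM in Control, 15.7, 18 and 16.6 CPM with BGP and 23.2, 21.4 and 21 CPM with NaHPO4. The NaHPO4 libraries all lay above the others, and Pole rose 1.29-fold (log2 fold change 0.37, SE 0.0749, adjusted p = 0.000891). Pold1, the catalytic subunit of polymerase delta, rose by 0.22 (adjusted p = 0.0236), a call lost without Control replicate 1 or 2 or NaHPO4 replicate 1 or 3 (0.00759 to 0.13 over the alternatives). The log2 fold changes of the others were 0.31 for Pole2, 0.15 for Pola1, 0.14 for Prim2, 0.12 for Pold3, 0.08 for Prim1, 0.06 for Pola2 and 0.04 for Pold2, and these did not pass.

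Lig1, DNA ligase 1, was at 24.3, 27.3 and 26 CPM in Control, 27, 30.1 and 26.1 CPM with BGP and 36, 31.9 and 35.8 CPM with NaHPO4. NaHPO4 replicate 2 came nearest to the other conditions but remained above BGP replicate 2, the highest of them. Lig1 rose 1.33-fold (log2 fold change 0.42, SE 0.0654, adjusted p = 2.43e-05), and 9.8% of its exon length overlapped Zswim9 on the opposite strand. Fen1, the flap endonuclease that trims Okazaki fragments before ligation, had a log2 fold change of 0.09 and did not pass (adjusted p = 0.547). Gm10143, at a mean of 0.271 CPM over all libraries, overlapped 59.0% of the exon length of Fen1 on the opposite strand.

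In nucleotide supply 3 of 5 genes were higher, with a median log2 fold change of 0.25. Tyms, thymidylate synthase, was at 21.9, 21.9 and 23.9 CPM in Control, 22, 22.6 and 22.3 CPM with BGP and 26.8, 29.2 and 30.1 CPM with NaHPO4. Rrm2, the S phase subunit of ribonucleotide reductase, was at 43.3, 42 and 44.9 CPM in Control, 39.4, 41 and 42.7 CPM with BGP and 48.2, 53.3 and 53.7 CPM with NaHPO4. Both genes were higher in every NaHPO4 library than in every other library. Tyms rose 1.27-fold (log2 fold change 0.34, SE 0.0656, adjusted p = 0.000419) and Rrm2 rose 1.19-fold (log2 fold change 0.25, SE 0.0523, adjusted p = 0.00122). Of the exon length of Rrm2, 43.3% overlapped Gm59512 on the opposite strand, for which no count was available. Dut, which breaks down dUTP, rose by 0.26 (adjusted p = 0.0134), a call lost after thinning and without Control replicate 1 or NaHPO4 replicate 2 (0.00601 to 0.0728 over the alternatives). Rrm1, the large subunit of the reductase, had a log2 fold change of 0.06 with a 95% confidence interval from -0.01 to 0.14, and Tk1, thymidine kinase 1, had 0.17; neither passed.

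Of the 4 chromatin and histone supply genes 3 were higher, with a median log2 fold change of 0.28. Uhrf1, which guides maintenance DNA methylation to newly copied DNA, was at 56.7, 57.2 and 57.6 CPM in Control, 51.7, 50.8 and 52.5 CPM with BGP and 66.5, 74.7 and 67.6 CPM with NaHPO4. The 3 conditions did not overlap, with BGP lowest and NaHPO4 highest. Uhrf1 rose 1.22-fold with NaHPO4 (log2 fold change 0.28, SE 0.0467, adjusted p = 4.92e-05). Chaf1a, the large subunit of chromatin assembly factor 1, was at 31.4, 34.3 and 34.6 CPM in Control, 32.1, 32.8 and 32.4 CPM with BGP and 39.5, 42.6 and 38.9 CPM with NaHPO4. It rose 1.2-fold (log2 fold change 0.27, SE 0.056, adjusted p = 0.00128) with no overlap, and 51.0% of its exon length overlapped Ubxn6 on the opposite strand, for which the log2 fold change was -0.06. Chaf1b, a further subunit, rose by 0.28 (adjusted p = 0.00885), and Slbp, which binds the stem-loop of histone mRNA, had 0.12 and did not pass (adjusted p = 0.145).

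Of the 5 S phase repair genes 2 were higher, with a median log2 fold change of 0.28, and they included the gene with the largest estimate of the 50. Exo1, an exonuclease of mismatch repair and of DNA end resection, was at 6.31, 6.13 and 4.96 CPM in Control, 5.68, 6.2 and 5.03 CPM with BGP and 9.03, 8.11 and 8.51 CPM with NaHPO4. Its NaHPO4 libraries lay above all others, and it rose 1.48-fold (log2 fold change 0.56, SE 0.124, adjusted p = 0.00224). Without Control replicate 3, its lowest library, the log2 fold change was 0.46, under the study's minimum, while the adjusted p of 0.0327 still passed (0.000295 to 0.0327 over the alternatives). Brip1, a helicase that partners Brca1, rose by 0.33 (adjusted p = 0.036), a call that ended with DESeq2 and when Control replicate 1 or 3 or NaHPO4 replicate 1 or 2 was left out (0.0205 to 0.186 over the alternatives). Brca1 had a log2 fold change of 0.25 and missed the threshold (adjusted p = 0.0561), which it passed after thinning, with total-count scaling, with a replicate block or without Control replicate 2 or NaHPO4 replicate 1 (0.0292 to 0.227). The threshold was also missed by Ung at 0.28 and Blm, the Bloom syndrome helicase, at 0.04.

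**Figure D3:**
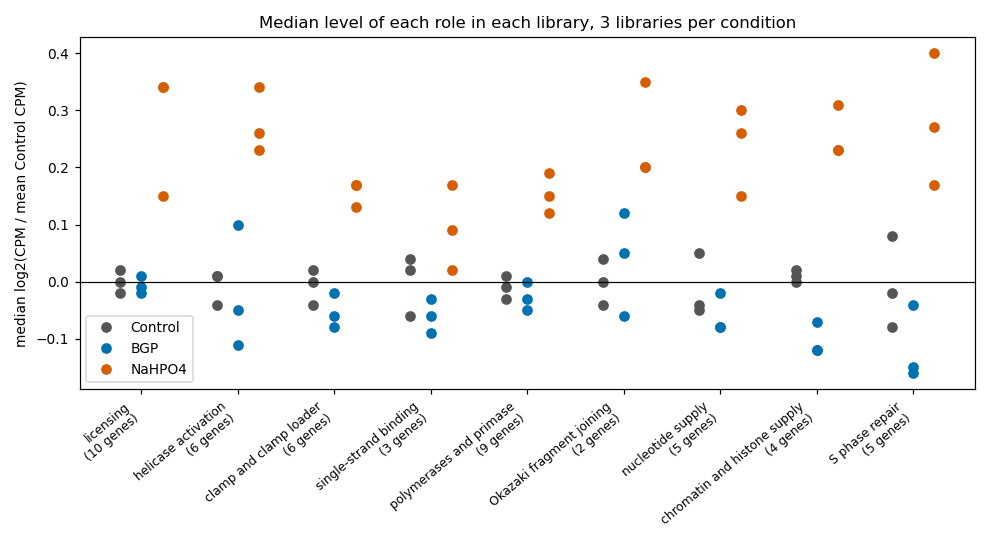
Median over the genes of each role of log2(CPM / mean Control CPM), 1 point per library, with the number of genes under each role. NaHPO4 points lie above every Control and BGP point in all roles except single-strand binding, where the 3 medians of 0.02, 0.09 and 0.17 reach into the Control range.

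The 23 genes that passed with NaHPO4 had a median level of 28.2 CPM (5.02 to 116 CPM), a median SE of 0.0654 and log2 fold changes from 0.16 to 0.56. The other 27 had a median level of 21.3 CPM (2.07 to 125 CPM), a median SE of 0.0724 and log2 fold changes from 0.04 to 0.31. The SE reached 0.139 (Gins1) among the genes that passed and 0.224 (Orc1) among the others. The most abundant genes outside the calls, Rrm1 and Rpa1, had intervals that ended at 0.14. Of the genes that passed, 19 had a promoter window and 10 of these held an E2F word (52.6%), against 5 of 23 among the others (21.7%). The CCAAT box was found in 12 of 19 and 15 of 23. Mcm4, Gins1, Pole and Exo1 passed but had no window. A link between the words and the calls was not tested.

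Over the 17 alternatives tested for each gene, 14 of the 23 genes called with NaHPO4 passed in all of them and 9 lost their call in at least 1. The 14 were Mcm6, Mcm3, Mcm2, Mcm5, Cdc45, Pcna, Pole, Lig1, Tyms, Rrm2, Uhrf1, Chaf1a, Chaf1b and Exo1.

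The second comparison asked the same of the organic phosphate. BGP raised 0 and lowered 0 of the 50 genes against Control in edgeR, where 1.86% of all tested genes were higher and 0.665% lower, and the DESeq2 Wald test also called 0. At an unadjusted p below 0.05 there were 5 genes, 4 of them lower. The log2 fold change was above 0 for 12 of 50 genes, and for 6623 of all 13679 tested genes. Its median over the 50 genes was -0.03 and its range -0.30 to 0.18. The 95% confidence intervals reached from -0.52 for Brip1 to 0.46 for Orc1; 45 of 50 held 0, and 31 lay within 0.25 of 0 on both sides. The BGP libraries lay below all Control libraries for 9 genes and above them for 0, where 8.79% of all tested genes were fully below and 9.74% fully above.

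The 6 genes with the smallest adjusted p with BGP were Uhrf1, Brip1, Chaf1b, Cdt1, Brca1 and Mcm10. Uhrf1, with the library values above, had a log2 fold change of -0.15 (95% confidence interval -0.24 to -0.05, adjusted p = 0.121). Brip1 was at 8.04, 9.14 and 8.94 CPM in Control, 6.95, 6.83 and 7.52 CPM with BGP and 11.1, 11.5 and 10.4 CPM with NaHPO4. Its 3 conditions did not overlap, and its log2 fold change with BGP was -0.30 (95% confidence interval -0.52 to -0.07, adjusted p = 0.186). Its exons overlapped the antisense gene Brip1os over 2.9% of their length. Brip1os was at a mean of 84.9 CPM over all libraries and was not called. Its log2 fold change was 0.11 with NaHPO4 against Control and -0.10 with BGP against NaHPO4 (adjusted p = 0.0892 and 0.137 in edgeR).

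Chaf1b was at 19.5, 18.5 and 19.3 CPM in Control, 15.6, 16.9 and 17.9 CPM with BGP and 23.8, 23.1 and 22.8 CPM with NaHPO4. Brca1, a homologous recombination gene, was at 14, 16 and 14.3 CPM in Control, 12, 13.3 and 13.2 CPM with BGP and 16.6, 18.3 and 17.8 CPM with NaHPO4. In both genes every BGP library was below every Control library, with log2 fold changes of -0.18 (adjusted p = 0.252) and -0.20 (adjusted p = 0.296). Mcm10, which helps start the helicase, was at 10.6, 10.4 and 9.68 CPM in Control, 8.39, 9.48 and 8.6 CPM with BGP and 13.5, 10.8 and 10.6 CPM with NaHPO4. Its BGP libraries were the lowest of the 9, and NaHPO4 replicate 1 stood above the other 2 NaHPO4 libraries, which were near Control (BGP against Control -0.21, adjusted p = 0.413).

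Cdt1 was the exception in direction. It was at 16.3, 17.4 and 17.9 CPM in Control, 20.9, 19.7 and 17.9 CPM with BGP and 20.5, 21.1 and 21.9 CPM with NaHPO4. BGP replicate 1 lay among the NaHPO4 libraries, BGP replicate 2 between the NaHPO4 and Control libraries, and BGP replicate 3 level with Control replicate 3, the highest of Control. The log2 fold change with BGP was 0.18 (95% confidence interval 0.02 to 0.33, adjusted p = 0.29).

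**Figure D4:**
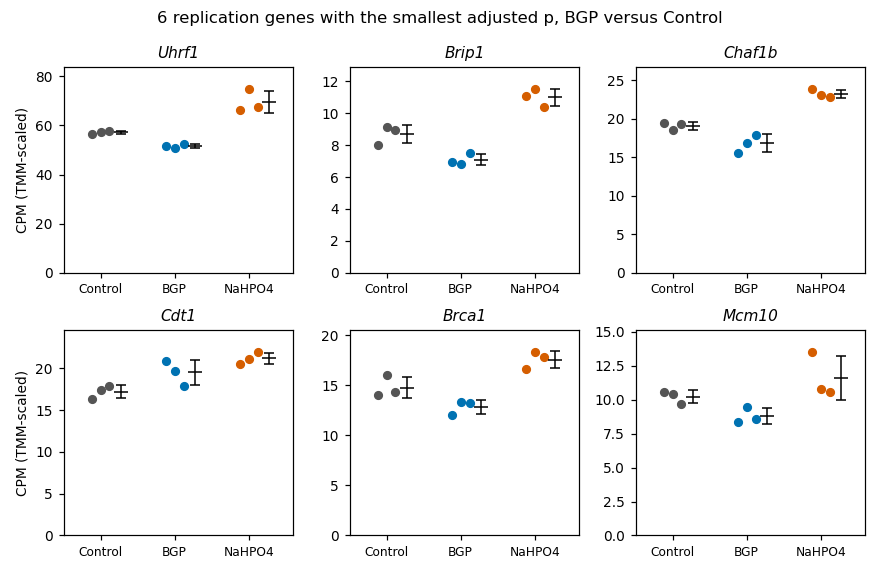
TMM-scaled CPM in each library for the 6 replication genes with the smallest adjusted p in BGP versus Control, none of which passed the threshold, with axes from 0. Coloured points are libraries (3 per condition) and black marks the mean ± SD; BGP lies below Control in all genes shown except Cdt1.

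The third comparison set both phosphate sources against each other at the same dose and time. It shares its libraries with the comparisons above and is not independent of them. Of the 50 genes 26 were lower with BGP than with NaHPO4 and 0 were higher, where 2.05% of all tested genes were lower and 3.33% higher. The median log2 fold change was -0.24 and the range -0.63 to 0.04. The log2 fold change was above 0 for 2 of the 50 genes and for 6731 of all 13679 tested genes. The BGP libraries lay below all NaHPO4 libraries for 35 of 50 genes, against 10.4% of all tested genes. Exo1 (-0.60, adjusted p = 0.00165) and Brip1 (-0.63, adjusted p = 9.64e-05) passed the minimum fold change as well, which 0.585% of all tested genes did. The organic ester and the inorganic salts therefore differed in these 26 genes by the direct test, p-values being adjusted over all genes within each of the 3 pairs of conditions.

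By role, 7 of 10 licensing genes were lower with BGP than with NaHPO4, as were 2 of 6 helicase activation genes, 2 of 6 clamp and clamp loader genes, 1 of 3 single-strand binding genes, 2 of 9 polymerase and primase genes, 1 of 2 Okazaki fragment genes, 4 of 5 nucleotide supply genes, 4 of 4 chromatin and histone supply genes and 3 of 5 repair genes. Mcm6 (-0.35, adjusted p = 6.34e-08) and Uhrf1 (-0.43, adjusted p = 4.87e-08) had the smallest adjusted p. Brca1 (-0.45), Chaf1b (-0.46) and Dut (-0.39) also passed. Mcm10 passed (-0.40, adjusted p = 0.0163), but its call was lost when BGP replicate 1 or 3 or NaHPO4 replicate 1 was omitted (0.00568 to 0.155 over the alternatives). In all, 16 of the 26 calls held under every alternative, and Mcm10, Slbp, Rfc3, Mcm7, Pold1, Rpa1, Cdc6, Tk1, Mcm4 and Cdc45 lost theirs in at least 1. Cdt1 did not pass, with a log2 fold change of -0.12 (95% confidence interval -0.27 to 0.03), nor did Rrm1 (-0.03, interval -0.11 to 0.04), Pold2 (0.04, -0.08 to 0.16) or Prim2 (0.02, -0.14 to 0.18).

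Genes around the same process were taken from 3 further lists. Of all tested genes, 3.43% were higher and 3.95% lower with NaHPO4 than in Control. With BGP, 0.665% were lower than in Control and 2.05% lower than with NaHPO4. Of 74 other replication, repair and chromatin genes, NaHPO4 raised 14 and lowered 1 against Control, with a median log2 fold change of 0.12. Hells, a chromatin remodeller, rose by 0.42 (adjusted p = 0.000119), Msh6, a mismatch recognition protein, by 0.28 (adjusted p = 8.2e-05), Wdhd1, a replisome component, by 0.33 and Dnmt1, the maintenance DNA methyltransferase, by 0.23. Chek1, the checkpoint kinase of stalled forks, was at 4.25, 4.74 and 4.96 CPM in Control, 4.74, 4.13 and 4.68 CPM with BGP and 6.19, 7.2 and 6.56 CPM with NaHPO4. Its NaHPO4 libraries lay above all others, and it rose by 0.51 (adjusted p = 0.0109), a call lost without Control replicate 1 or NaHPO4 replicate 2 (0.00664 to 0.0792 over the alternatives). Pold4, the small accessory subunit of polymerase delta, went the other way, falling with NaHPO4 (log2 fold change -0.26, adjusted p = 0.0215) and with BGP (-0.27, adjusted p = 0.0471), the latter the only call of BGP against Control in this list; it was named after its values were seen. Its call with NaHPO4 was lost without Control replicate 3 or NaHPO4 replicate 3 (0.0151 to 0.122), and that with BGP was lost in 9 of 17 alternatives (0.038 to 0.25). With BGP against NaHPO4, 16 of 74 were lower, among them Rmi2 (-0.85), Chek1 (-0.56) and Recql4 (-0.53), of which Chek1 was lost without BGP replicate 2 or NaHPO4 replicate 2 (0.00294 to 0.0606) and Recql4 without BGP replicate 1 or 3 or NaHPO4 replicate 1 (0.00944 to 0.171).

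For the next 2 lists too, the share of all tested genes was 3.43% higher and 3.95% lower with NaHPO4 against Control. Of 27 tested G1/S regulators among 30 listed, NaHPO4 raised 5 and lowered 0, with a median log2 fold change of 0.09. They were Ccne2, cyclin E2 (0.31, adjusted p = 0.00105), the E2F partners Tfdp1 (0.19) and Tfdp2 (0.13), the pocket protein Rbl1 (0.25) and E2f1 itself (0.24, adjusted p = 0.0109). E2f1 was at 23.7, 24.2 and 24.5 CPM in Control, 24.1, 23.5 and 25.7 CPM with BGP and 28.2, 28.6 and 28.7 CPM with NaHPO4, and its NaHPO4 libraries stood above the rest. Without Control replicate 1 the calls of E2f1 (0.00431 to 0.0591 over the alternatives), Tfdp1 (0.000941 to 0.0667) and Rbl1 (0.00285 to 0.074, also lost without NaHPO4 replicate 2) did not pass, and that of Tfdp2 was lost in 10 of 17 alternatives (0.00989 to 0.168), whereas that of Ccne2 held in all. BGP raised 1 of the 27 against Control, Ccnd3, cyclin D3 (0.20, adjusted p = 0.000865), a gene named after its values were seen. Against Control, BGP raised 1.86% and lowered 0.665% of all tested genes. Of 35 mitosis genes, NaHPO4 raised 3, namely Top2a, a topoisomerase (0.18), Cdk1, the mitotic kinase (0.21), and Mki67, the proliferation antigen (0.14), with a median log2 fold change of 0.09. Top2a held under every alternative, while Cdk1 was lost with DESeq2 and without Control replicate 1 or NaHPO4 replicate 1 or 3 (0.00278 to 0.23) and Mki67 in 6 of 17 alternatives (0.00168 to 0.194), among them the omission of Control replicate 1 or NaHPO4 replicate 1 or 2. BGP changed 0 of the 35 against Control, and 9 of them were lower with BGP than with NaHPO4, as were 2.05% of all tested genes.

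**Figure D5:**
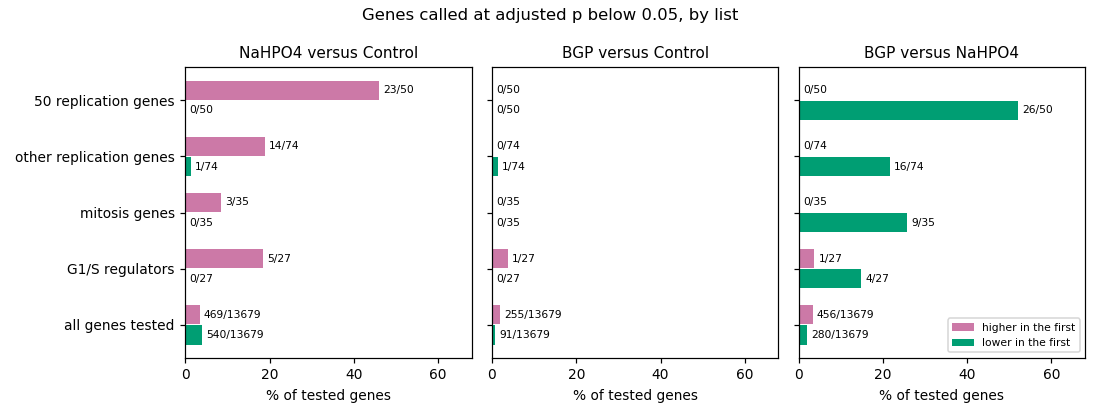
Percentage of tested genes called at an adjusted p below 0.05 in each of the 3 comparisons, for the 50 replication genes, the 3 neighbouring lists and all 13679 tested genes. Pink bars are genes higher and green bars genes lower in the first-named condition, with counts beside the bars; the 50 replication genes have 23 higher with NaHPO4 and 26 lower with BGP than with NaHPO4.

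Replication-dependent histone genes, whose transcripts end in a stem-loop in place of a poly(A) tail, were scarcely measured in these poly(A)-selected libraries. Of 64 names 7 passed the count filter, and near-identical copies can share reads. Their summed level was 55.6 to 65.2 CPM in Control, 53 to 60.5 CPM with BGP and 51 to 54.2 CPM with NaHPO4. NaHPO4 raised 0 of the 7 and lowered 1, H1f2, a linker histone (log2 fold change -0.32, adjusted p = 0.0022), and BGP changed 0 against Control. Of all tested genes, NaHPO4 raised 3.43% and lowered 3.95%.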

How the data were processed

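RNA sequencing libraries of 3 conditions, 3 per condition, were compared. The authors deposited whole-number read counts per Ensembl gene, without normalization, made per the study's methods from stranded poly(A) libraries in the AIR software against GRCm39; aligner, counter and strand setting are not given in the sources used here. The authors also deposited a TMM-scaled signal, the same counts times 1 factor per library, used for gene names only. The 50 genes and all gene lists were chosen with earlier results of these data known. With edgeR 4.0.16, filterByExpr (count minimum 10) kept 13679 of 55416 genes, and glmQLFit was run on all 9 libraries after TMM scaling. Contrasts were tested with glmQLFTest (two-sided) and Benjamini-Hochberg adjustment over all tested genes. Calls were made at an adjusted p below 0.05; the study's rule adds an absolute log2 fold change above 0.5. SE is the absolute log2 fold change over the square root of F. The scripts were tested on simulated data. RPKM used exon lengths of GENCODE on GRCm39, and promoters came from RefSeq on GRCm38.p6. Library values were given for the 12 called genes with the smallest adjusted p with NaHPO4, the 6 with the smallest adjusted p with BGP and any gene passing the study's rule; genes of other lists were named if they passed that rule or were among the 5 smallest adjusted p with NaHPO4. Totals of 21390839 to 28234404 counts and a biological coefficient of variation of 3.64% set the precision. Alternatives used DESeq2 1.42.0, other scalings, filters, sample sets and thinning. Replicate pairs differed by 2.61 to 4.85 times sampling variance, so none was counted as a duplicate. A gene of another list that this rule names is not reported here.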

Additional observations from a re-analysis of the deposited data

How the results depend on the processing

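The count of replication genes higher with NaHPO4 than in Control, 23, lay between 16 and 24 over all alternatives: 21 with DESeq2, 17 at an adjusted p below 0.01, 21 after thinning (chosen after the data were seen) and 16 to 23 when 1 library was left out, the lowest without Control replicate 1. The count lower with BGP than with NaHPO4, 26, lay between 20 and 29, with 20 to 26 when 1 library was left out. BGP against Control gave 0 calls under every alternative run. The number passing the minimum fold change with NaHPO4, 1, was 3 without Control replicate 2 and 0 without Control replicate 3, and ranged from 0 to 3 when 1 library was left out. The median log2 fold change with NaHPO4 was 0.19 to 0.24, and that of BGP against NaHPO4 -0.27 to -0.21, when 1 library was left out, in both cases smallest in size without NaHPO4 replicate 2. No called value was reversed, but of the uncalled genes with NaHPO4, Pold2 (0.00 without Control replicate 2), Gins4 (-0.01 without NaHPO4 replicate 1) and Rpa2 (-0.07 without NaHPO4 replicate 3) lay on the other side of 0 (Pold2 by less than rounding). Scaling by total counts moved the median of all genes by at most 0.03. For single genes, 1284 of 1394 values kept direction and side of the threshold, 99 lost the threshold and 11 gained it. Deviations of same-numbered libraries of different conditions correlated at a mean of 0.0127 (-0.0092 to 0.0426). Those of differently numbered libraries correlated at a mean of -0.00632, and 7 of 9 libraries correlated best with their own number. Whether replicate numbers pair the libraries was not tested. A replicate block in the fit gave 24 genes higher with NaHPO4 and 26 lower with BGP than with NaHPO4. Depth limits the lowest genes most, as the interval of Orc1 shows.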
